A study of Mus musculus with 24 samples.

Results

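The skeletal muscle of male mice homozygous for the Rap1 I312R knock-in allele (Rap1 KI/KI) was compared with that of wild-type (WT) littermates. The members are the 6 muscle arrays, 3 WT and 3 Rap1 KI/KI, of 24 arrays in all, chosen by their tissue and genotype labels. Each array holds the RNA of 1 mouse, and the same 6 mice also gave liver, brain and heart. WT1, WT2 and WT3 stand for the wild-type animals and KI1, KI2 and KI3 for the knock-in animals, in the order of their animal numbers. The age was 5 months for WT1 and KI1 and 2 months for the remaining 4. The line had been backcrossed to mice that the labels call C57BL6 and the study's methods C57BL/6N, all 6 mice were male, and the labels call the Rap1 KI/KI genotype MUT. The sources used here do not name the muscle that was taken. The 6 muscle arrays share a slide, on which WT1 and KI1 lie in a row of their own, so age and array row cannot be told apart.

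RAP1, encoded by Terf2ip, is a subunit of shelterin, the protein complex that coats mammalian telomeres. It reaches telomeres through TRF2 and also binds sites elsewhere in the genome, where it can affect transcription, and mice that lack it are known for changes in metabolic genes. The I312R exchange was designed to weaken the contact of RAP1 with TRF2. Skeletal muscle is a mixture of slow-twitch fibres, which burn fat and sugar oxidatively, and fast-twitch fibres, which rely more on glycogen, together with vessels, blood, nerve, tendon and fat cells, so a dissected sample can differ in composition as well as in the RNA of its fibres. In bulk RNA a change in the number of cells of a type and a change in RNA per cell cannot be told apart.

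The guide RNA and the single-strand donor that define the allele are shown, because they are the designed difference between the groups. Capitals mark the bases at which donor and guide differ. Positions are counted from 1 at the 5′ end of the guide, and the guide's base comes first in A18C, T19G and C20G. The donor matches the other 17 of the 20 guide bases. A further changed base of the donor, named as such by the labels, lies outside the guide and is not capitalised.
Guide (20 bases): gaactgccattaaggtgATC
Donor (120 bases): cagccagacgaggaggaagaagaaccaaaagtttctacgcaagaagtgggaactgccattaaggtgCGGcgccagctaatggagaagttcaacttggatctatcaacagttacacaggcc

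Levels are log2 of the background-subtracted signal that the authors deposited, minus log2 of the 75th percentile of the same array, so that 0 is that percentile and 1 unit is a factor of 2. The 75th percentile was 471 to 529 on the 6 muscle arrays. The share of probes well above background, by the scanner's own test, was 56.5% to 57.3% in WT and 57.5% to 61.8% in Rap1 KI/KI muscle, highest in KI3. The tissue label fits its markers. The summed linear level of 20 muscle fibre genes was 5511 to 6815 on the muscle arrays, against 1563 to 2587 in the heart, 9.51 to 12.6 in the brain and 3.77 to 5.73 in the liver, and 19 or all 20 of them were well above background on each muscle array.

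Terf2ip (chromosome 8) was measured at 1.51, 1.36 and 1.38 in WT1 to WT3 and at 1.44, 1.09 and 0.88 in KI1 to KI3. The values of the genotypes overlapped. The difference was -0.28 (standard error 0.21, n = 3 mice per genotype, limma adjusted p = 0.939), and the gene's other probe gave -0.29. The array does not read the exchanged codon, so these levels do not check the genotype. Of 7 shelterin genes, 6 were above background in muscle. The telomere-end binding gene Pot1a differed by -0.46 (standard error 0.27), and Terf1, Terf2, Tinf2 and Acd, which encode the duplex-binding subunits and their bridges, by -0.13, 0.06, -0.02 and 0.08. None of the 6 reached an unadjusted p under 0.05 in limma, or an adjusted one.

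Across 32343 probes detected over background in 3 or more muscles, 0 (0%) passed a limma adjusted p under 0.05, and the lowest adjusted p was 0.939. At an unadjusted p under 0.05, 465 probes (1.44%) were higher and 334 (1.03%) lower in Rap1 KI/KI muscle. The split between directions depended on the scaling, the probes and the mice. It was 318 higher and 567 lower after quantile normalization and 209 higher and 409 lower after normexp background correction. It was 306 and 325 among probes above background on all 6 arrays, and 369 and 378 without the brain-marking probes defined below. It was 394 and 392 without KI3, 580 and 615 without WT3, and 1402 and 1602 without KI1. Without WT1, WT2 or KI2 more probes were higher than lower. The list counts below use 15250 named genes, each represented by its brightest probe. Among them 241 (1.58%) were higher and 126 (0.826%) lower at an unadjusted p under 0.05. In 385 genes (2.52%) all 3 Rap1 KI/KI mice lay above all 3 WT mice, and in 612 (4.01%) they lay below. The median difference over the named genes was -0.07, with 5989 differences above 0 and 9261 below 0.

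KI3 stood apart by transcripts of the brain. For each mouse, probes were counted that lay over 1 log2 unit above all 5 other muscles. There were 911 in KI3, 410 in KI2, 126 in KI1 and 30 to 73 in the WT mice. Of the 911 in KI3, 805 (88.4%) were brain-marking, that is at least 3 log2 units brighter in WT brain than in WT muscle, whereas 5.25% of all tested probes were. In the other Rap1 KI/KI mice the share was 4.76% and 5.61%. Probes over 1 unit below all others were 539 in KI3 and 74 to 219 in the other 5 mice.

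**Figure D1:**
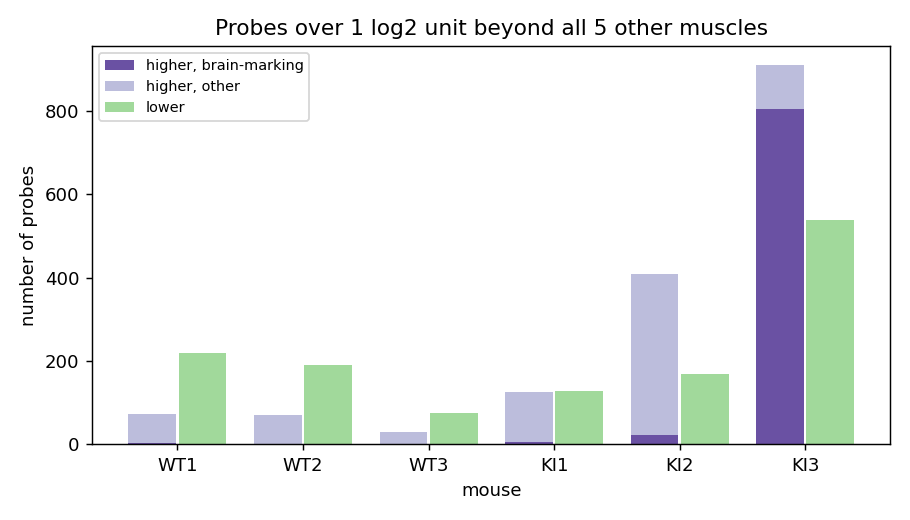
Number of probes (y axis) that lay more than 1 log2 unit above (purple shades) or below (green) all 5 other muscles, for each mouse (x axis). The dark purple part, probes that mark brain, makes up 805 of 911 in KI3 and 0 to 23 in the other 5 mice.

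Kif5a, an axonal transport motor, was at -2.67, -2.69 and -2.38 in WT and at 1.82, -1.88 and 5.56 in KI1 to KI3. Cck, a neuropeptide of the forebrain, was at -3.84, -4.07 and -3.43 against -0.01, -2.94 and 4.91. Rbfox3, the gene of the nuclear antigen NeuN, was at -5.38, -3.74 and -3.77 against -2.08, -3.14 and 2.99. KI3 was the highest mouse in each, and KI1 was next. The pan-neuronal list had a median of 1.57 over 15 tested genes, with 4.16 in KI3, 0.90 in KI1, -0.02 in KI2 and -0.24 to 0.18 in WT mice. All 20 listed pan-neuronal genes have a probe, and their summed linear level was 217 in KI3, 41.7 and 49.3 in the other Rap1 KI/KI mice and 41.4 to 53.8 in WT mice. In KI3 and also in KI1, 19 of the 20 were well above background, against 14 or 15 in each other mouse.

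The muscle level of the 15 genes was a median of 16.2% of the level in the same mouse's brain in KI3, 1.31% in KI1, and 0.337% to 0.536% in the other 4 mice. For 9 forebrain genes it was 34.2% in KI3 and 0.295% to 1.12% in the others. Of 13 cerebellar genes 6 were tested, and their median was -0.11 in KI3 and 0.74 in KI1. Of all 13, tested or not, 10 were well above background in KI3 and 5 or 6 in each other mouse. Their summed linear level was 12.2 in KI3 and 13.1 to 33.6 in the other mice. The astrocyte median was 1.99 and the central myelin median 1.12 in KI3, while the list of peripheral myelin and Schwann cells, which accompany the nerves of muscle, was at 0.12. As a share of the same mouse's brain, astrocyte genes were at a median of 16.3% in KI3 and 15.3% in KI2. Central myelin genes were at 5.69% in KI3 and 4.92% in WT3. Summed linear levels in KI3 and KI2 were 66.6 and 25.7 for the astrocyte list, and 155 and 146 for central myelin. Without KI3 the pan-neuronal median was 0.39 and the forebrain median 0.49. Camk2a, a kinase of forebrain synapses that muscle also expresses, lay the other way, with 3.57, 3.46 and 3.14 in WT and 2.92, 2.89 and 2.87 in Rap1 KI/KI mice.

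The platelet genes Gp9, Ppbp and Treml1 were among the named genes of the smallest p. Gp9 (chromosome 6), a subunit of the platelet receptor for von Willebrand factor, was at -4.81, -4.68 and -5.93 in WT1 to WT3 and at -2.01, -2.97 and -2.96 in KI1 to KI3. Ppbp, the precursor of platelet granule chemokines, was at -3.49, -3.58 and -4.26 in WT and at -0.61, -1.97 and -1.93 in Rap1 KI/KI mice. Treml1, a receptor of platelet granules, was at -3.18, -3.90 and -4.35 and at -1.10, -2.07 and -2.41. In all of these genes the genotypes did not overlap and KI1 was the highest mouse. The differences were 2.49, 2.27 and 1.95 (standard errors 0.42, 0.42 and 0.43), or 5.62-, 4.83- and 3.85-fold, with unadjusted p of 0.000554, 0.000948 and 0.00255 and a limma adjusted p of 0.939 for each. Gp9 was well above background on 2 of the 3 WT arrays, so its fold rests partly on a value below that level.

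Not every platelet or megakaryocyte gene differed in this way. Of 14 listed genes, 8 were tested and 3 of these passed an unadjusted p under 0.05, beside 1.58% of all named genes. Pf4, the best-known platelet chemokine, was at 3.58, 3.93 and 3.53 in WT and at 3.03, 4.04 and 3.15 in Rap1 KI/KI mice, a difference of -0.27 (standard error 0.31). Itgb3, an integrin of platelets and vessels, differed by 0.29. The list's median was 0.65, with values of 1.01, 0.44 and 0.53 in KI1 to KI3 and -0.22 to 0.22 in WT mice. Leaving out any 1 mouse left 3 or 4 platelet genes higher at that p. Among genes above background on all 6 arrays the count was 2 of 6 and the median 0.12, and with normexp the median was 0.27.

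Some red cell genes also had higher levels. Of 18 erythroid genes, 11 were tested. In limma 5 passed an unadjusted p under 0.05 as higher and 0 as lower, beside 1.58% and 0.826% of all named genes. In 6 of the 11 all Rap1 KI/KI mice lay above all WT mice, beside 2.52% of all named genes. The globin gene Hba-a1 was at 7.48, 7.02 and 7.82 in WT and at 8.62, 8.24 and 8.04 in Rap1 KI/KI mice, and Hbb-bt at 6.48, 5.70 and 6.60 against 7.61, 7.20 and 7.01. Alas2, the first enzyme of haem synthesis in red cells, was at 1.49, 0.69 and 1.27 against 2.54, 2.23 and 1.63. The differences were 0.86, 1.02 and 0.98, or 1.82- to 2.02-fold, with unadjusted p of 0.0165, 0.0122 and 0.0174. Slc4a1, the anion exchanger of red cells, and Hbb-b1 differed by 1.21 and 0.71. The globin genes are near-identical copies, and which of them a probe reads was not checked. The count of 5 was 1 without WT2 or without KI1, 3 without WT1 or without WT3, 4 without KI3 and 6 without KI2.

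Neutrophil genes differed mostly in KI1 and KI3. S100a8, a calcium-binding alarmin of neutrophils, was at -3.11, -1.20 and -3.16 in WT and at 3.74, -1.12 and 1.08 in Rap1 KI/KI mice. Its partner S100a9 was at -0.75, 0.91 and -0.87 against 5.92, 1.03 and 3.1. Chil3, a chitinase-like protein of neutrophils and macrophages, was at -3.68, -3.41 and -4.50 against 1.02, -2.47 and -1.49. KI2 exceeded the highest WT mouse by 0.08 in S100a8 and 0.12 in S100a9, while KI1 stood several units above it. Of 20 neutrophil and myeloid precursor genes, 14 were tested. In limma 3 of these were higher at an unadjusted p under 0.05 (0.0157, 0.0175 and 0.0106), beside 1.58% of all named genes. The median of the 14 was 2.19, and by mouse it was 4.94 in KI1, -0.15 in KI2, 2.27 in KI3 and -0.45 to 0.52 in WT mice. Without KI1 and KI3 it was -0.15. The count of 3 was 1 without WT3, 9 without KI2, and 3 or 4 without any other mouse. Without KI2, 763 of 32343 probes were higher at that p, beside 465 in the main fit. The B cell list had a median of 0.07 and the macrophage list one of 0.00.

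Of 17 tested mitotic genes, 6 had all 3 Rap1 KI/KI muscles above all 3 WT muscles, beside 2.52% of all named genes. Ccnb1, the cyclin that drives entry into mitosis, was at -5.46, -4.29 and -4.89 in WT and at -3.45, -3.52 and -3.73 in Rap1 KI/KI mice. Mki67, which encodes the proliferation antigen Ki-67, was at -1.52, -1.12 and -0.96 against -0.27, -0.33 and -0.48. Cenpe, a kinetochore motor, was at -3.52, -2.77 and -2.84 against -2.55, -2.06 and -1.55. In each of these genes the genotypes did not overlap. The differences were 1.31, 0.84 and 0.99, or 2.49-, 1.79- and 1.98-fold, with unadjusted p of 0.00399, 0.00607 and 0.02. Ccna2, another cyclin, and Nusap1, a spindle protein, differed by 0.55 and 0.54. Cdk1, the kinase partner of Ccnb1, was not well above background in any WT muscle and exceeded the WT bound at least 1.18-fold in Rap1 KI/KI muscle.

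Of 22 mitotic genes, 17 were tested, and 6 passed an unadjusted p under 0.05 as higher and 0 as lower, beside 1.58% and 0.826% of all named genes. Of the 17, 2 were not well above background in any WT muscle and so entered the test only through the Rap1 KI/KI arrays. Among genes above background on all 6 arrays the count was 4 of 14. Aurka, Tpx2 and Birc5, a spindle kinase, its activator and a partner of Aurora B, did not separate the genotypes, with differences of -0.62, -0.82 and 0.49. The list's median was 0.47, and by mouse it was 0.49, 0.51 and 0.65 in KI1 to KI3 and -0.20 to 0.13 in WT mice. The count of 6 was 2 without WT1, whose list median was the lowest, and 4 to 6 without any other mouse. Melk, a kinase of dividing cells, and Cdkn3, a phosphatase of cyclin-dependent kinases, were also among the genes of the smallest p. Neither was well above background in any WT muscle, and the levels in Rap1 KI/KI muscle were at least 1.45- and 1.22-fold higher.

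**Figure D2:**
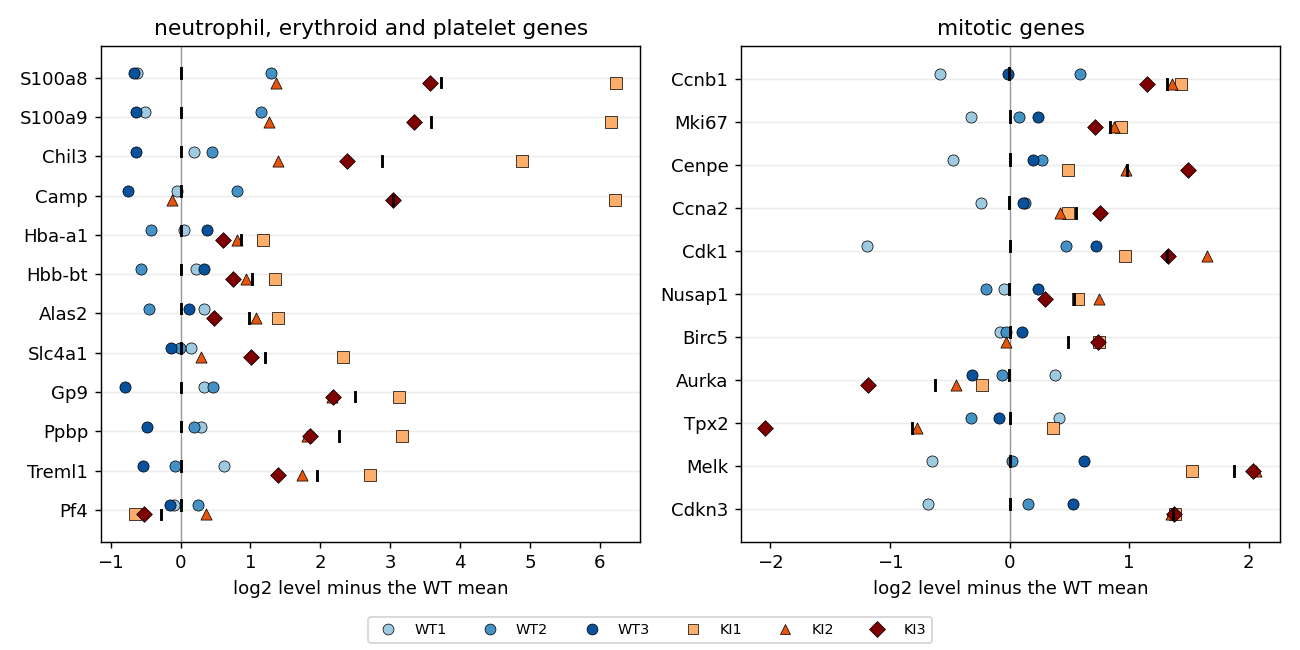
Level of 23 genes in each muscle, as the log2 level minus the mean of the 3 WT muscles (x axis), with blood cell genes on the left and mitotic genes on the right. Circles are WT mice, the square, triangle and diamond are KI1, KI2 and KI3, and bars are genotype means. Gp9, Ppbp, Treml1, Ccnb1 and Mki67 separate the genotypes, while S100a8 and S100a9 spread from KI2, close to WT2, up to KI1.

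The promoters of mitotic and blood cell genes are shown because Ccnb1, Mki67, Gp9 and Alas2 are among the members of these groups that separated the genotypes. They are the 250 bases before the start of the gene in the RefSeq table of build GRCm38.p6. In mitotic genes, capitals mark CCAAT or its reverse complement ATTGG, the box bound by NF-Y, and in the other genes GATAA or TTATC, a core that GATA factors bind. Of the 17 mitotic genes tested, 14 have an entry, and 12 of these (85.7%) held CCAAT on either strand, beside 34.5% of 27025 promoters. GATAA on either strand was in 5 of 7 erythroid promoters (71.4%) and 2 of 6 platelet promoters (33.3%), beside 23.0% of all and 15.9% of the promoters of tested named genes. CCAAT was in the same numbers of these promoters, 5 of 7 erythroid and 2 of 6 platelet ones. A match is a description of the letters, not a bound site.
Ccnb1 (chr13:100786487-100786736, - strand): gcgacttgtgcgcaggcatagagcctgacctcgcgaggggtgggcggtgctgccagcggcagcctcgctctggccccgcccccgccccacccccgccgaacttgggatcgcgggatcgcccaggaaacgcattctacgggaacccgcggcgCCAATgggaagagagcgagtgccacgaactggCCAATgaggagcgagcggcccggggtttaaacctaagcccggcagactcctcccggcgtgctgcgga
Mki67 (chr7:135716380-135716629, - strand): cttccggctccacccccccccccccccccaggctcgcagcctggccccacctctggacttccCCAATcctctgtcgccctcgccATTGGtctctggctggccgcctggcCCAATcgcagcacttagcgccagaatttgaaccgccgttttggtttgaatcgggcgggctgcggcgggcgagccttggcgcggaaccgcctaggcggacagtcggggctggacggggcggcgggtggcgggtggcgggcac
Gp9 (chr6:87777820-87778069, + strand): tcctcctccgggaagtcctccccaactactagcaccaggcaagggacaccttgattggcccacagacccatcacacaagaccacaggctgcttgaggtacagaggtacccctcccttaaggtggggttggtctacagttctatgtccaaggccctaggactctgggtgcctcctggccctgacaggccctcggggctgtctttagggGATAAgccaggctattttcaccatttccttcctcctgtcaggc
Alas2 (chrX:150547167-150547416, + strand): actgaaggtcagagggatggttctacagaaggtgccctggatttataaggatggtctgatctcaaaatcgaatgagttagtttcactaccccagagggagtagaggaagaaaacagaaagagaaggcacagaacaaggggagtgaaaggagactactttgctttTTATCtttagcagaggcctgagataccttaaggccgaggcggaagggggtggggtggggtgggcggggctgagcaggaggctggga

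**Figure D3:**
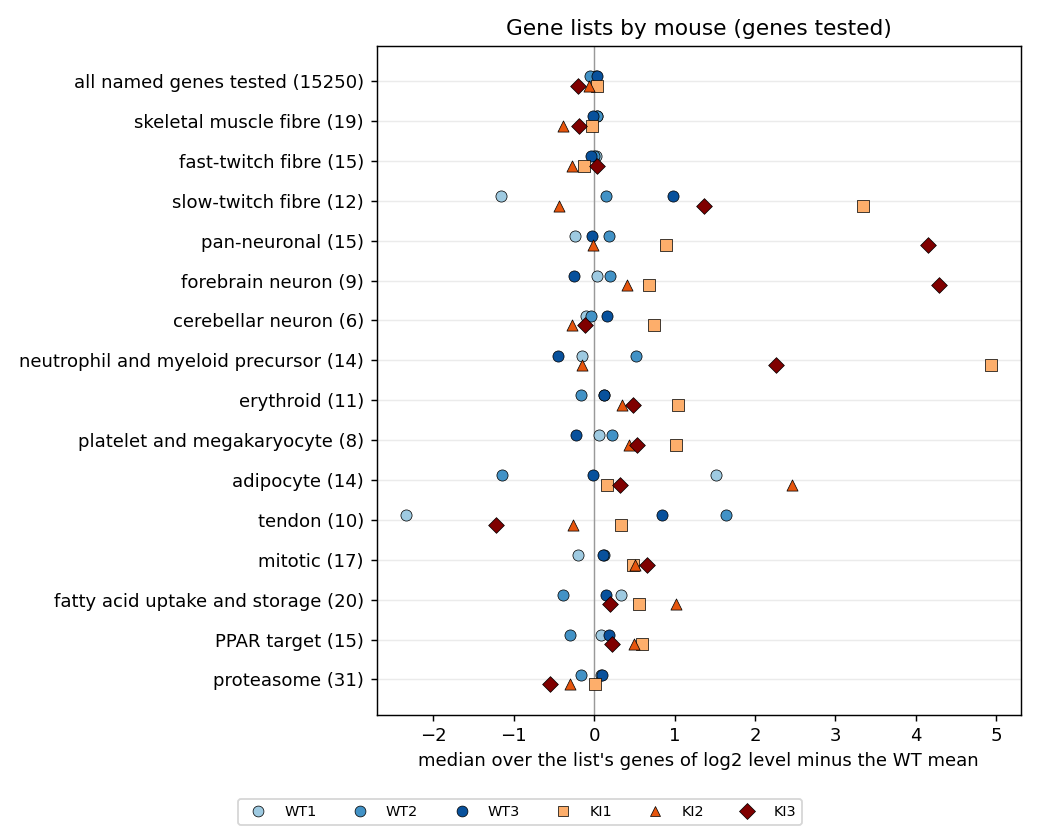
Median over each gene list of the log2 level minus the WT mean (x axis), for each mouse, with the number of genes tested in brackets. KI3 is at 4.16 in the pan-neuronal list, KI1 at 4.94 in the neutrophil list and 3.34 in the slow-twitch list, and KI2 at 2.46 in the adipocyte list, while all genes together lie within 0.20 of the WT mean.

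Slow-twitch fibre genes varied widely between mice of the same genotype. Myh7, the slow myosin heavy chain, was at -0.25, -1.54 and 1.14 in WT1 to WT3 and at 6.26, -1.42 and 3.75 in KI1 to KI3. Tnnt1, slow troponin T, was at 0.60, 1.38 and 3.22 against 6.32, 1.22 and 3.88, and Myl3, a light chain of slow and cardiac myosin, at 0.71, 3.31 and 2.78 against 8.21, -0.04 and 5.87. In these genes KI1 and KI3 were the highest mice, and KI2 lay within or below the WT range. The genotypes overlapped in each of the 12 slow-twitch genes. All 12 differences were above 0, beside 5989 of all 15250 named genes. They ran from 0.35 to 3.08, with a median of 1.59, but 0 passed an unadjusted p under 0.05 in limma. The count was 7 without KI2, where 763 of 32343 probes were higher at that p, beside 465 in the main fit. It was 5 in the fit of all 24 arrays, also with the mouse as a block, where 848 and 850 probes were higher. The fit of all 24 arrays takes the spread from all tissues together, not from muscle alone. The median by mouse was 3.34, -0.44 and 1.36 in KI1 to KI3 and -1.16 to 0.98 in WT mice. In the 2-month-old mice alone the median was -0.05, and it was 0.59 without KI1 and 2.50 without KI2.

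Fast-twitch genes were closer together by mouse, with list medians of -0.27 to 0.03 in Rap1 KI/KI and -0.04 to 0.02 in WT mice. Of 15 tested genes, 1 was lower at an unadjusted p under 0.05 in limma, beside 0.826% of all named genes. In 3 of the 15 all Rap1 KI/KI mice lay below all WT mice, beside 4.01%. The differences ran from -0.75 to 1.38, and the list's median was -0.09, beside -0.07 for all named genes. Tnnt3, fast troponin T, was at 9.71, 9.72 and 9.75 in WT and at 9.61, 9.64 and 9.69 in Rap1 KI/KI mice, close together but without overlap. The gene that passed was Mylk2, the myosin light chain kinase of skeletal muscle, at 7.84, 7.52 and 7.44 against 7.40, 6.54 and 6.60, a difference of -0.75 (standard error 0.28, unadjusted p = 0.0328, limma adjusted p = 0.939).

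Adipocyte genes were high in KI2 and WT1. Ucp1, the uncoupling protein of brown fat, was at -3.46, -7.24 and -7.41 in WT1 to WT3 and at -0.42, 3.61 and -5.18 in KI1 to KI3, so the genotypes overlapped. It was well above background on 1 of the 3 WT arrays, so the fitted difference of 5.37 (standard error 2.15) rests partly on values below that level and is no measure of size. Cidea, a lipid droplet protein of brown fat, was at 3.57, -0.45 and 1.53 against 3.29, 6.58 and 2.20. All 14 adipocyte genes had differences above 0, beside 5989 of all 15250 named genes, with a median of 0.90. Ucp1 alone passed an unadjusted p under 0.05 in limma (0.0408), beside 1.58% of all named genes as higher. The count was 0 with age as a block and 6 in the 2-month-old mice. In the 2-month-old mice 907 of 32343 probes were higher at that p, beside 465 in the main fit. Without 1 mouse the count was 0 to 3, with 3 without WT1, 2 without KI3 and 0 without any other mouse. The median was 0.23 without WT2 or without KI2 and 1.67 without WT1. By mouse the median was 0.16, 2.46 and 0.32 in KI1 to KI3 and 1.52, -1.15 and -0.01 in WT1 to WT3. The summed linear level of the list was 486 to 1636 in WT and 839 to 2192 in Rap1 KI/KI mice.

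Among 20 genes of fatty acid uptake and storage, 19 had differences above 0, beside 5989 of all 15250 named genes, and the median was 0.57. In limma 3 passed an unadjusted p under 0.05 as higher and 0 as lower, beside 1.58% and 0.826% of all named genes. In 1 of the 20 all Rap1 KI/KI mice lay above all WT mice, beside 2.52%. Slc27a1, a fatty acid transport protein, was at 2.19, 2.45 and 2.26 in WT and at 3.01, 2.61 and 2.72 in Rap1 KI/KI mice and did not overlap between the genotypes. Plin5, the lipid droplet protein of oxidative tissues, was at 2.26, 3.17 and 4.20 against 5.21, 4.09 and 4.93, where KI2 lay below WT3. Cd36, a fatty acid translocase, was at 3.80, 3.24 and 4.16 against 4.88, 4.86 and 3.95, where KI3 lay below WT3. The differences were 0.48, 1.53 and 0.83, with unadjusted p of 0.0479, 0.0214 and 0.0496. The count of 3 was 0 without WT2, the mouse with the lowest adipocyte genes, 0 without KI1, and 2 to 4 without any other mouse, and it was 1 with age as a block. By mouse the list's median was 0.56, 1.01 and 0.19 in KI1 to KI3 and 0.33, -0.39 and 0.15 in WT1 to WT3. KI2 was the highest mouse and WT2 the lowest, as in the adipocyte list, whereas KI2 was at -0.44 in the slow-twitch list. The part of fat cells or fibre type in these values was not tested.

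Of 15 tested PPAR target genes, 3 were higher at that p, beside 1.58% of all named genes, with a median of 0.54. The count was 0 without WT2, 1 without WT1 and 2 or 3 without any other mouse, and the median was 0.19 without KI1. Angptl4, an inhibitor of lipoprotein lipase, was at 2.57, 1.59 and 2.43 in WT and at 2.98, 5.68 and 3.61 in Rap1 KI/KI mice, a difference of 1.90 (standard error 0.68). Acot1, a cytosolic acyl-CoA thioesterase, was at -2.43, -1.73 and -0.13 against 1.45, -0.81 and 1.24, where KI2 lay below WT3. The list holds Cd36 and other genes of fat cells too. Mitochondrial fatty acid oxidation had differences above 0 in 19 of 20 genes, beside 5989 of all 15250 named genes. The median was 0.25, with 0 genes at an unadjusted p under 0.05 in limma, and KI1 had the highest value, 0.70. For the TCA cycle (19 genes) and oxidative phosphorylation (41 genes) the medians were 0.02 and 0.03, again with 0 at that p.

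**Figure D4:**
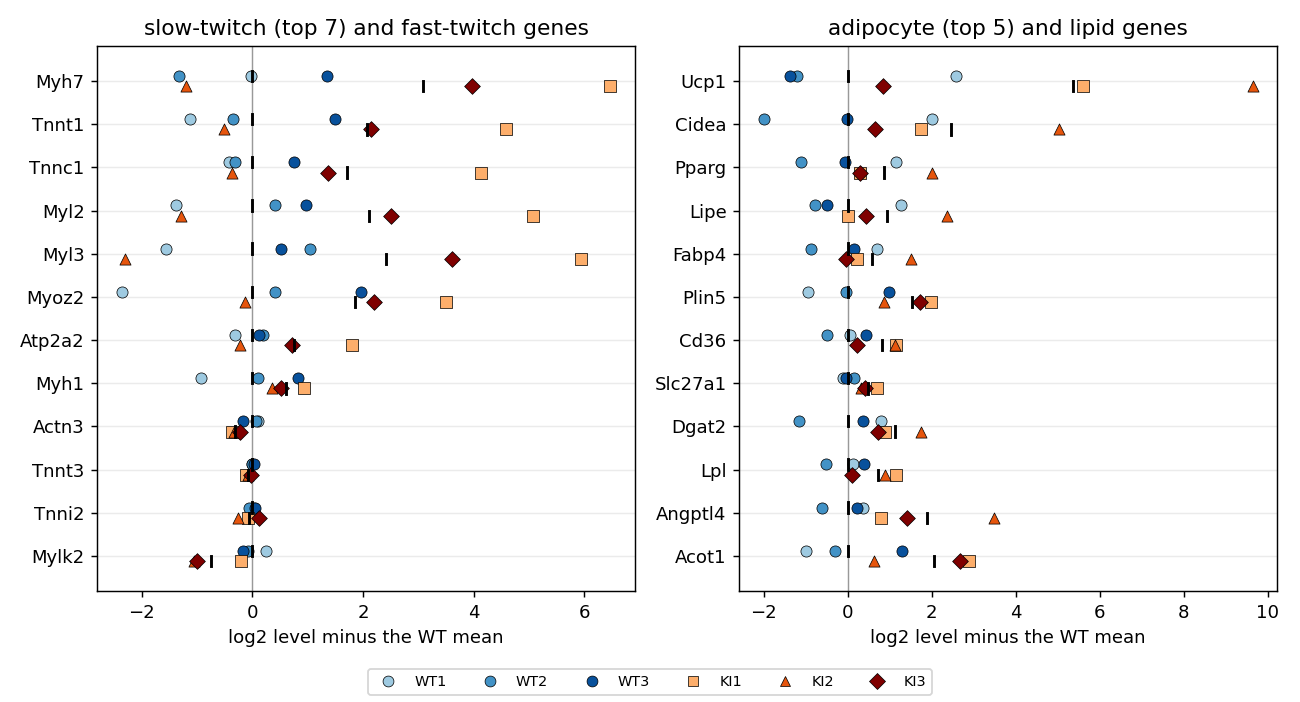
Level of 24 genes in each muscle, as the log2 level minus the mean of the 3 WT muscles (x axis), with fibre type genes on the left and adipocyte and lipid genes on the right. Circles are WT mice, the square, triangle and diamond are KI1, KI2 and KI3, and bars are genotype means. KI1 and KI3 are high and KI2 is low in the slow-twitch genes, whereas KI2 is the highest mouse in Ucp1 and Cidea.

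All 31 proteasome subunit genes had differences below 0, beside 9261 of all 15250 named genes. The differences ran from -0.43 to -0.06, with a median of -0.30. However, 0 passed an unadjusted p under 0.05 in limma. In 1 of the 31 the genotypes did not overlap, beside 4.01% of all named genes lower without overlap. The gene without overlap was Psma4, a subunit of the core ring, at 4.71, 4.61 and 4.63 in WT and 4.47, 4.26 and 3.93 in Rap1 KI/KI mice. By mouse the median was 0.01, -0.30 and -0.55 in KI1 to KI3, and -0.16 to 0.10 in WT mice. Without KI1, 9 of the 31 were lower at that p. In that fit 1602 of 32343 probes were lower, beside 334 in the main fit. Without KI3 the median was -0.14. With quantile normalization the median was -0.17.

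In calcium handling, 1 of 21 genes was lower at an unadjusted p under 0.05 in limma, beside 0.826% of all named genes. Lower without overlap were 4 of the 21, beside 4.01% of all named genes. Cacng1, a subunit of the voltage sensor of muscle, was at 4.41, 4.14 and 3.55 against 3.41, 3.26 and 3.26, a difference of -0.72 (standard error 0.26, unadjusted p = 0.0268). Ryr1, the calcium release channel, was at 8.21, 8.35 and 7.96 against 7.94, 7.68 and 7.52 and missed that p (0.0666). Myod1, the master regulator of myogenesis, was at 0.53, 0.79 and 0.12 against 0.27, -0.55 and -0.88 and differed by -0.87 (standard error 0.34), with KI1 inside the WT range. The medians of glycogen metabolism (15 genes), circadian clock (17), muscle fibre (19) and neuromuscular junction genes (16) were -0.28, -0.28, -0.19 and -0.07, with 0 genes at an unadjusted p under 0.05 in limma. Lower without overlap were 3 of 15 glycogen, 3 of 17 clock, 5 of 19 muscle fibre and 2 of 16 junction genes. The muscle fibre median was -0.07 with quantile normalization. Muscle atrophy genes had a median of 0.05.

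Immune lists differed in direction. For comparison, 5989 of all 15250 named genes had differences above 0 and 9261 below 0. Of all named genes, 1.58% were higher at an unadjusted p under 0.05 in limma and 2.52% were higher without overlap. Of 18 genes in the Fc receptor and phagocyte list, 16 had differences above 0, 1 passed an unadjusted p under 0.05 and 2 separated the genotypes, all higher in Rap1 KI/KI muscle. Its median was 0.30, and 0.08 without KI2. Of 18 interferon-induced genes, 15 had differences above 0, 1 passed and 2 separated the genotypes as higher. Their median was 0.23, and -0.05 without KI2, with 0.75 in KI2, 0.09 in KI1 and -0.18 in KI3. Rsad2, the antiviral protein viperin, was at -1.06, -0.95 and -0.63 in WT and at 0.10, -0.08 and -0.52 in Rap1 KI/KI mice, a difference of 0.71 (standard error 0.24, unadjusted p = 0.0207). Of 18 chemokine and cytokine genes, Il1b alone passed an unadjusted p under 0.05 (a fold of 2.83, unadjusted p = 0.0307), with the genotypes overlapping. All 8 tested MHC class II genes had differences below 0, with a median of -0.53, but KI2 was above the WT mean at 0.22. The median of 15 NF-kappaB and inflammasome genes was -0.04.

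By the smallest p among genes without overlap, 15 named genes were taken in each direction, all with a limma adjusted p of 0.939. Besides the platelet and mitotic genes, the higher ones were Spx, the neuropeptide spexin, Cela1, an elastase, Igsf21, a synaptic adhesion protein, Slc38a5, an amino acid transporter, Il31ra, a cytokine receptor, H2ac4, a histone gene, Samsn1, an adaptor of blood cells, the formin Fhdc1 and the transcripts 9230102O04Rik and B430306N03Rik. Spx was at -5.08, -5.48 and -5.07 in WT and at -3.32, -4.04 and -3.49 in Rap1 KI/KI mice, a difference of 1.59 (standard error 0.26, unadjusted p = 0.00042). The transcript 9230102O04Rik had the smallest p of all, 0.000202, and was at -5.45, -4.75 and -5.14 against -2.88, -3.35 and -3.50. Both Spx and 9230102O04Rik were well above background on 1 of the 3 WT arrays. Their differences therefore rest partly on values below that level and are no measure of size. Igsf21 was at -3.85, -3.78 and -2.95 against -1.76, -0.81 and 0.96, with KI3 the highest. Of these 15 genes, Spx, Cela1, Melk, Fhdc1, Igsf21 and Slc38a5 were brain-marking. Slc38a5, Cela1, Il31ra and B430306N03Rik were not well above background in any WT muscle and entered the test only through the Rap1 KI/KI arrays. They exceeded the WT bound at least 4.16-, 2.08-, 1.58- and 3.26-fold in the mutant muscle. The same entry held for Melk and Cdkn3. Of all 15250 named genes, 37 were not well above background in any WT muscle, and 1 was not in any Rap1 KI/KI muscle.

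The lower genes included Fer1l4, of the ferlin family, Cntnap2, an axonal adhesion protein, Col9a1, a cartilage collagen chain, Piezo2, a mechanosensitive channel, Il12a, a subunit of interleukin 12, and Exoc7, a subunit of the exocyst. Fer1l4 was at -3.08, -3.06 and -3.57 in WT and at -4.38, -4.34 and -4.62 in Rap1 KI/KI mice, a difference of -1.21 (standard error 0.22, unadjusted p = 0.000912). Cntnap2 was at -0.66, -1.07 and -0.81 against -2.66, -1.69 and -2.11, but its other tested probe differed by 0.03. Exoc7 was at 4.24, 4.57 and 3.84 against 3.21, 3.68 and 2.90, a difference of -0.95 (standard error 0.29, unadjusted p = 0.0128). The other tested probe of Ccdc169 likewise went the other way, by 0.44 against -0.85. The rest were Adam7, Hs3st3a1, Vmn1r65, Rmi2, H2al2a, H2al1n, Gm4850 and Gm4792, with differences from -1.24 to -0.71. Because the genotypes had to be apart for a gene to be chosen, leaving out mice cannot turn its direction. In the 2-month-old mice alone 24 of the 30 had an unadjusted p under 0.05 in limma. These mice also served to choose the genes, so the count is no independent support. In that fit 907 probes were higher and 483 lower at that p, of 32343 tested.

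**Figure D5:**
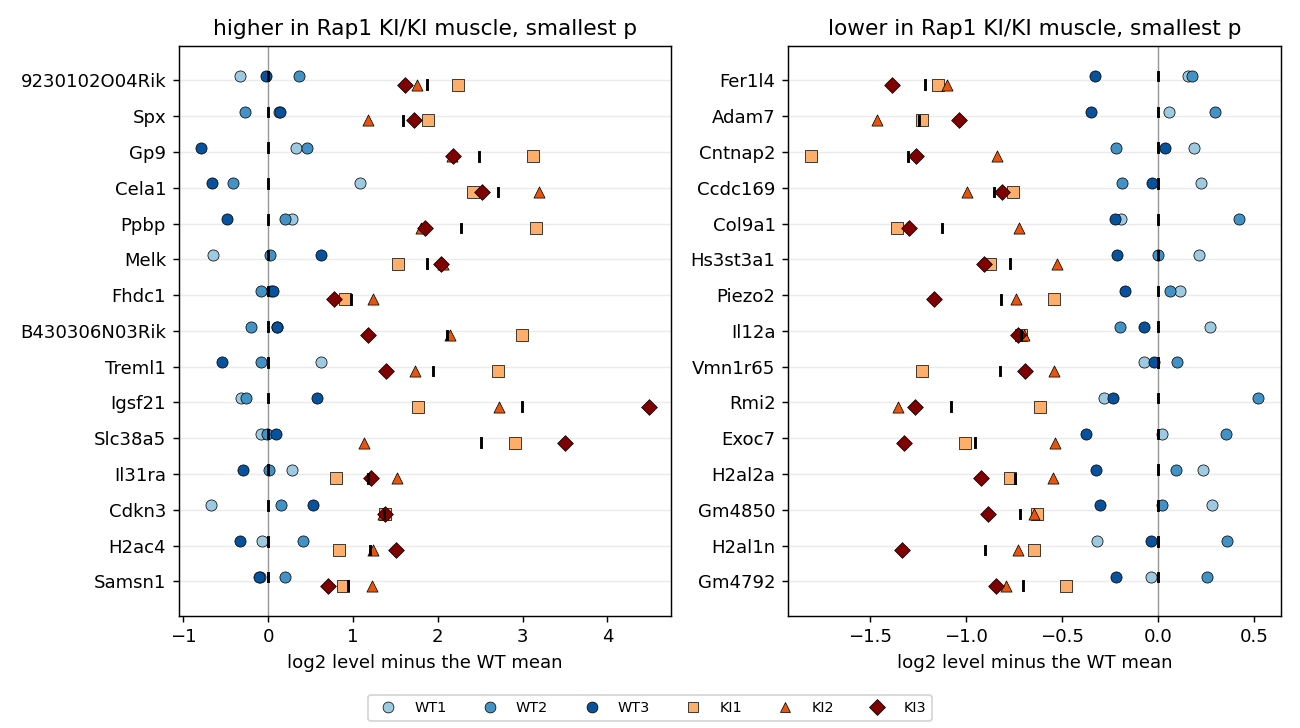
The 15 higher and 15 lower genes of the smallest p, as the log2 level of each mouse minus the mean of the 3 WT muscles (x axis). Circles are WT mice, the square, triangle and diamond are KI1, KI2 and KI3, and bars are genotype means. The genotypes do not overlap in any of the genes, as the rule for choosing them requires, and the lower genes differ by -1.30 to -0.71.

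The muscle difference was also set against the mean difference in liver, brain and heart of the same mice. Of 42322 probes, 0 (0%) passed a limma adjusted p under 0.05, and 1345 (3.18%) had an unadjusted p under 0.05. Without KI2 in all tissues, 26 passed, among them the neuronal genes Kif5a and Pcsk2 and the slow-twitch genes Myh7 and Myl3, named here after their values were seen, so these calls were made where KI1 and KI3 were the Rap1 KI/KI mice. Gp9 differed by 0.30 in the liver, 0.04 in the brain and 0.03 in the heart, against 2.49 in muscle. The median of the 17 mitotic genes was 0.69 in the liver, 0.32 in the brain and -0.03 in the heart, against 0.47 in muscle. In the heart the erythroid median was 0.42, with 3 of 11 genes higher without overlap, the neutrophil median was 0.64 with 0 of 14, and the proteasome median was -0.30, with 10 of 31 genes lower without overlap. The adipocyte median in the heart was 3.32, with 2 of 13 genes higher without overlap. The shares of 2.52% and 4.01% given above are for muscle. No such share over all heart genes is given here, so the heart counts cannot be weighed against one.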

How the data were processed

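Total RNA of muscle from 6 mice was labelled with Cy3 and hybridised to 1-colour Agilent mouse arrays. The deposited scanner intensity is the processed signal of Agilent Feature Extraction, background-subtracted by the authors' scanner software. The authors made the score values, a deposited table of z-scores, from the log intensities of each array, and recomputation matched them within 0.005. Here log2 intensity minus the log2 75th percentile of each array was used. Control spots were removed, as were 39 probes flagged as outliers, and the test covered 32343 of 55681 probes that the scanner called above background in 3 or more muscles. Signal over background and the number of arrays limit the precision.

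WT and Rap1 KI/KI muscle were compared by two-sided limma tests (version 3.58.1, R 4.3.3) of 3 mice per genotype, with Benjamini-Hochberg adjustment over all tested probes. An exact permutation test of 3 against 3 cannot go below p = 0.1. A gene is represented by its brightest probe. A gene not well above background on any array of a genotype has only a bound there, given as "at least", against the higher of its own signal and the lowest signal well above background. Named genes are the 15 of smallest p per direction among genes without overlap, and in each list up to 4 of the brightest and 6 of the smallest p. Pcsk2 lies outside this rule. Of 729 entries in 44 lists, 645 were tested. The members and lists were chosen with earlier results of these data known. The 19 alternatives tried include quantile normalization, normexp on the median and background signals (the mean signal was not used here), other filters, age as a block, mouse as a block, and leaving out mice. Scripts were tested on simulated data. Promoters come from a RefSeq table of GRCm38.p6. Some genes are not reported here.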

Additional observations from a re-analysis of the deposited data

Results flagged for a closer look

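In 3 cases a gene of the smallest p separated the genotypes in opposite directions in muscle and in another tissue. Melk was higher in Rap1 KI/KI muscle and lower in Rap1 KI/KI brain, by -0.58 on the log2 scale. Cdkn3 was higher in muscle and lower in brain, by -0.73. H2ac4 was higher in muscle and lower in liver, by -0.89. These opposite separations in single tissues were not tested against each other.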

How the results depend on the processing

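No alternative gave a probe with a limma adjusted p under 0.05 in muscle. At an unadjusted p under 0.05, 567 probes were lower after quantile normalization, 209 were higher with normexp, 820 were higher and 718 lower without a filter on dim probes, 306 were higher among probes above background on all 6 arrays, 907 were higher in the 2-month-old mice, and 722 were lower with array weights. With all 24 arrays 848 were higher and 574 lower without a block, and 850 and 579 with the mouse as a replicate block. Without KI1 and KI3 1806 were higher and 1508 lower. Leaving out 1 mouse gave 365 (without WT2) to 1402 (without KI1) higher and 127 (without WT2) to 1602 (without KI1) lower probes. The cause of these shifts was not tested. Against the other tissues, leaving out 1 mouse in all tissues gave 0 to 26 calls: 26 without KI2, 1 without WT1 (Apol7c) and 1 without KI1 (Cacng3), and 0 with the mouse as a block. For shelterin genes the difference turned for Tinf2 after quantile normalization, to 0.060. Leaving out 1 mouse gave ranges of -0.228 to 0.00385 for Terf1, -0.178 to 0.154 for Tinf2, -0.0135 to 0.180 for Acd and -0.0398 to 0.153 for Terf2, each including both signs.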
